A study of Arabidopsis thaliana with 6 samples.

Results

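Plant cells build their photosynthetic machinery from proteins encoded in the plastid and in the nucleus. The nuclear genes described here encode light-harvesting chlorophyll-binding proteins, which collect light for photosystem I (LHCA) or photosystem II (LHCB), nuclear-encoded subunits of both photosystems, and enzymes of the Calvin cycle, in which Rubisco fixes CO2. These genes are most active in green mesophyll and chlorenchyma, and many of them exist as small families of nearly identical copies. In the stem, chlorophyll-containing cells occur mainly in the outer tissues, whereas the pith is the ground tissue at the centre. The 52 genes were chosen by gene identifier, as rows of a table of raw read counts that holds 37051 genes. They comprise 6 LHCA genes, 14 LHCB genes, 12 genes for photosystem I subunits, 10 for photosystem II subunits and 10 for Calvin cycle enzymes, the last being the 4 small subunits of Rubisco (RBCS), Rubisco activase (RCA), sedoheptulose-bisphosphatase (SBPASE), phosphoribulokinase (PRK) and the chloroplast glyceraldehyde-3-phosphate dehydrogenase subunits (GAPA1, GAPA2 and GAPB). Plastid-encoded genes were not analysed here.

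RNA was profiled from 3 tissues of the second internode of the inflorescence stem of wild-type Arabidopsis thaliana (Col-0), which had been kept in short days and then moved to long days to flower. The tissues were cut from frozen sections by laser capture microdissection (LCM), in which a laser excises chosen cells under the microscope. They were the vascular bundle after removal of its phloem cap (bundle, libraries S30 and S31), the phloem cap itself, a group of cells at the outer edge of the bundle (cap, S32 and S33), and the pith (S34 and S35). All plants carried the same genotype, and the labels do not say which plants contributed to which library, so p-values measure only the spread between these libraries. The libraries held 19324189 to 22571632 counts, and levels are given as CPM, that is counts scaled to a common library size, after TMM normalization, which sets the scale by the bulk of the genes. In such bulk samples, fewer cells of a type and less RNA per cell cannot be told apart. The RNA had passed through 2 rounds of amplification, so reads are not independent molecules and counting intervals cover counting error only.

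Several of the families consist of copies that share long stretches of sequence, which matters here because only uniquely aligned reads of 50 bases were counted. LHCB1.1 (AT1G29920, chr1:10474656-10475969, minus strand on TAIR10), LHCB1.2 (AT1G29910, chr1:10472280-10473502, minus strand) and LHCB1.3 (AT1G29930, chr1:10477885-10479114, plus strand) lie next to each other and have coding sequences of 804 bases that differ at 47 positions in all. The coding bases 25 to 84, where the 3 copies differ most, are shown because they let a read be assigned to its copy, with the 8 differing positions in capitals:

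LHCB1.1: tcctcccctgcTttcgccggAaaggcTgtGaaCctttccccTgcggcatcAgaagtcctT

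LHCB1.2: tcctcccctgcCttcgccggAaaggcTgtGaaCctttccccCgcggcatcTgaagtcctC

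LHCB1.3: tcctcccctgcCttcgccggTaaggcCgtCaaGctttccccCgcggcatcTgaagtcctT

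The longest coding run without any difference among them covers bases 640 to 701. A read of 50 bases from within this run matches every copy and was not counted:

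LHCB1 shared run: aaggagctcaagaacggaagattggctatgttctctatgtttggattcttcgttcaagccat

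Of all 50-base windows in the exons of these genes, 20.5% in LHCB1.1, 10.7% in LHCB1.2 and 17.02% in LHCB1.3 recur elsewhere in the genome. The Rubisco small subunit genes form a comparable family, with RBCS1A (AT1G67090, chr1:25048158-25049667, minus strand) on chromosome 1 and RBCS1B (AT5G38430), RBCS2B (AT5G38420) and RBCS3B (AT5G38410) in a row on chromosome 5, between positions 15376988 and 15385320. Coding identity was 90.4 to 90.6% between RBCS1A and the other copies, and 96.7 to 97.3% among the latter. Coding bases 20 to 79 of each are shown because they separate RBCS1A from the rest, with the 16 positions that differ in capitals, at 11 of which RBCS1A alone differs from every other copy:

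RBCS1A: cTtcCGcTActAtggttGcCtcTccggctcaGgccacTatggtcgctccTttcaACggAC

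RBCS1B: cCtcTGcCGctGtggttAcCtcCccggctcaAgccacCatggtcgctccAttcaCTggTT

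RBCS2B: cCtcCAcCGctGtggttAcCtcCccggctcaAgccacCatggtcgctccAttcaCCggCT

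RBCS3B: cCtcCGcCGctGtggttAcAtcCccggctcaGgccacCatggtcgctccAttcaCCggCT

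In RBCS1A 0% of the exonic windows recur in the genome, against 11.96% in RBCS1B, 16.9% in RBCS2B and 16.6% in RBCS3B. The recurring windows are the same in each library, so that a copy can be compared among tissues, whereas the levels of different copies are not directly comparable. Reads that touched more than 1 gene were discarded irrespective of strand. For LHCB1.5 (AT2G34420, chr2:14522524-14523568, minus strand) 100% of the windows touch the genes AT2G34410 or AT2G08665 on the opposite strand. It had 0 counts in each library, its RNA could not have been counted, and 51 genes remained.

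The most prominent feature of the data was the higher level of these genes in the vascular bundle than in either other tissue. Of all counted reads, 4.83 and 4.84% fell in the 52 genes in the bundle, 2.3 and 3.37% in the cap, and 2.53 and 2.11% in pith. Both bundle libraries thus lay above the other 4, while phloem cap and pith overlapped. The mean over both libraries was highest in the vascular bundle for 50 of 51 genes and highest in the pith for PSBO2 (AT3G50820). The lowest mean was found in the pith for 30 genes and in the phloem cap for 21. Among the functional groups, LHCB genes held 1.37 and 1.33% of the counts in the bundle, 0.686 and 0.999% in the cap, and 0.586 and 0.496% in pith, with the cap libraries above the pith libraries in these shares. LHCA genes held 0.830 and 0.872%, 0.401 and 0.534%, and 0.587 and 0.497% in the same order, and here cap and pith overlapped. All these shares are of library totals, without the TMM factors of 1.07 and 1.16 in the cap and 0.888 and 0.874 in pith. The order of cap and pith in them depends on this scaling. With 2 libraries against 2, an exact permutation test cannot give a two-sided p below 0.333, and no test was made on these shares.

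**Figure D1:**
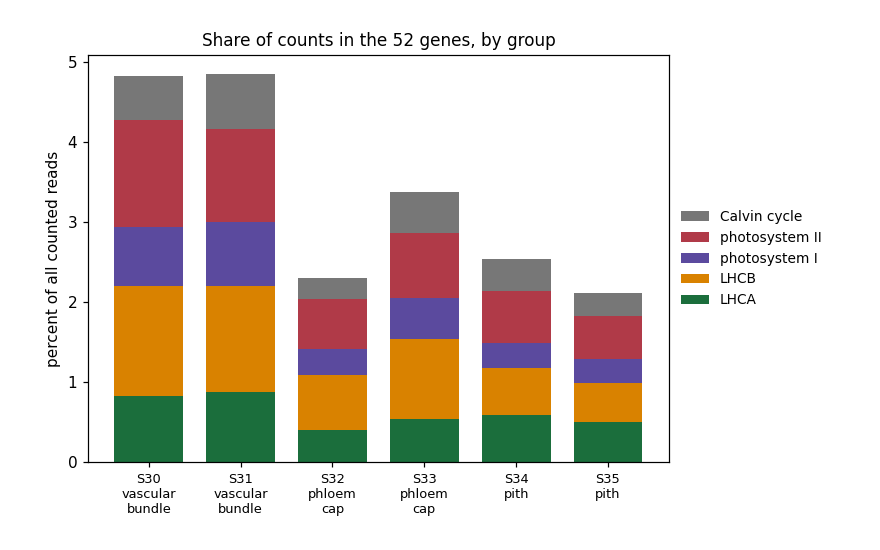
Percent of all counted reads (y axis) that fell in the 52 genes in each of the 6 libraries (x axis), stacked by functional group. The vascular bundle libraries reach 4.83 and 4.84%, and the other 4 libraries lie between 2.11 and 3.37%.

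**Figure D2:**
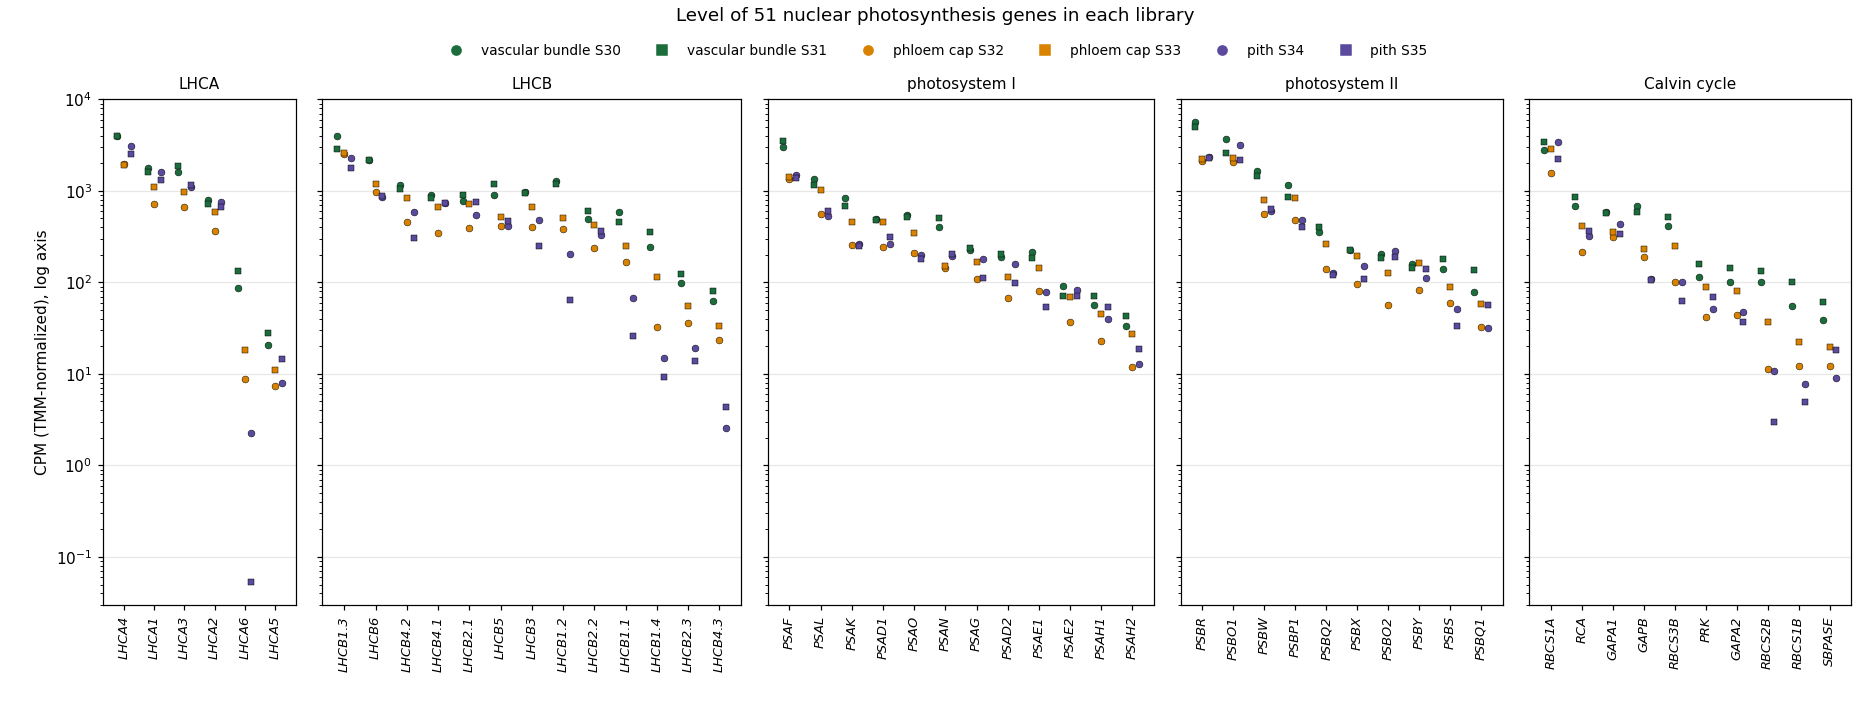
TMM-normalized CPM (y axis, log scale) of the 51 genes with counts, by functional group and ordered by mean level within a group (x axis). Each gene has a point per library (green vascular bundle, orange phloem cap, purple pith), and levels should be compared within a gene. In LHCA6, LHCB1.1, LHCB1.4 and LHCB4.3 both pith points lie below all others, whereas in RBCS2B the pith point of S34 is close to the cap point of S32 (10.7 and 11.4 CPM).

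Comparing pith and bundle sets the central ground tissue against the bundle as dissected. The 5 epidermis markers described below summed to 491 and 537 CPM in the bundle libraries, although PDF1 was at 0 and LTP1 at 0.522 and 0.427 CPM. EdgeR's quasi-likelihood test called 23 of the 51 genes lower in pith and 0 higher, where a call required an adjusted p under 0.01 together with a more than 2-fold change. Among all 18063 genes tested, 10.5% were called lower and 5.44% higher. Differences are given as log2 fold changes with their standard error (SE). Their median was -1.20 over these genes and -0.04 over all genes tested. The genes called lower were 1 of 6 LHCA, 7 of 13 LHCB, 6 of 12 photosystem I, 4 of 10 photosystem II and 5 of 10 Calvin cycle genes. In 46 genes both pith libraries lay below both bundle libraries (37.6% of all genes), and 39 had an unadjusted edgeR p below 0.05 and a lower level (24.1% of all genes). By the same unadjusted limit 0 were higher, against 18.2% of all genes. DESeq2, the tool used in the study, called 31 genes lower and 0 higher, with a background of 13.9 and 8.34%.

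Not all of these calls held across settings. LHCB1.1, LHCB1.4, LHCB2.3, LHCB4.3, RBCS1B, RBCS2B, RBCS3B and GAPB were called lower in each of the 8 other settings that used all libraries. Among these settings, the looser adjusted p limit of 0.05 on the same fit keeps every call by construction and adds no support. Testing against a fold of 2 (glmTreat) kept 9 of the 23 genes, the 8 just named and LHCA6, and a fit over all 6 libraries kept 11. The same 8 genes were also called in the 4 fits that left out 1 library, but there 1 tissue has a single library, assumed to vary like the other tissue. Without S30 the count was 11 (5.2% of all genes) and without S31 it was 13 (5.76%). Setting aside the 18 genes of which over 10% of windows recur or touch another gene left 33 genes, of which 14 were called lower, a restriction chosen after seeing the data.

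**Figure D3:**
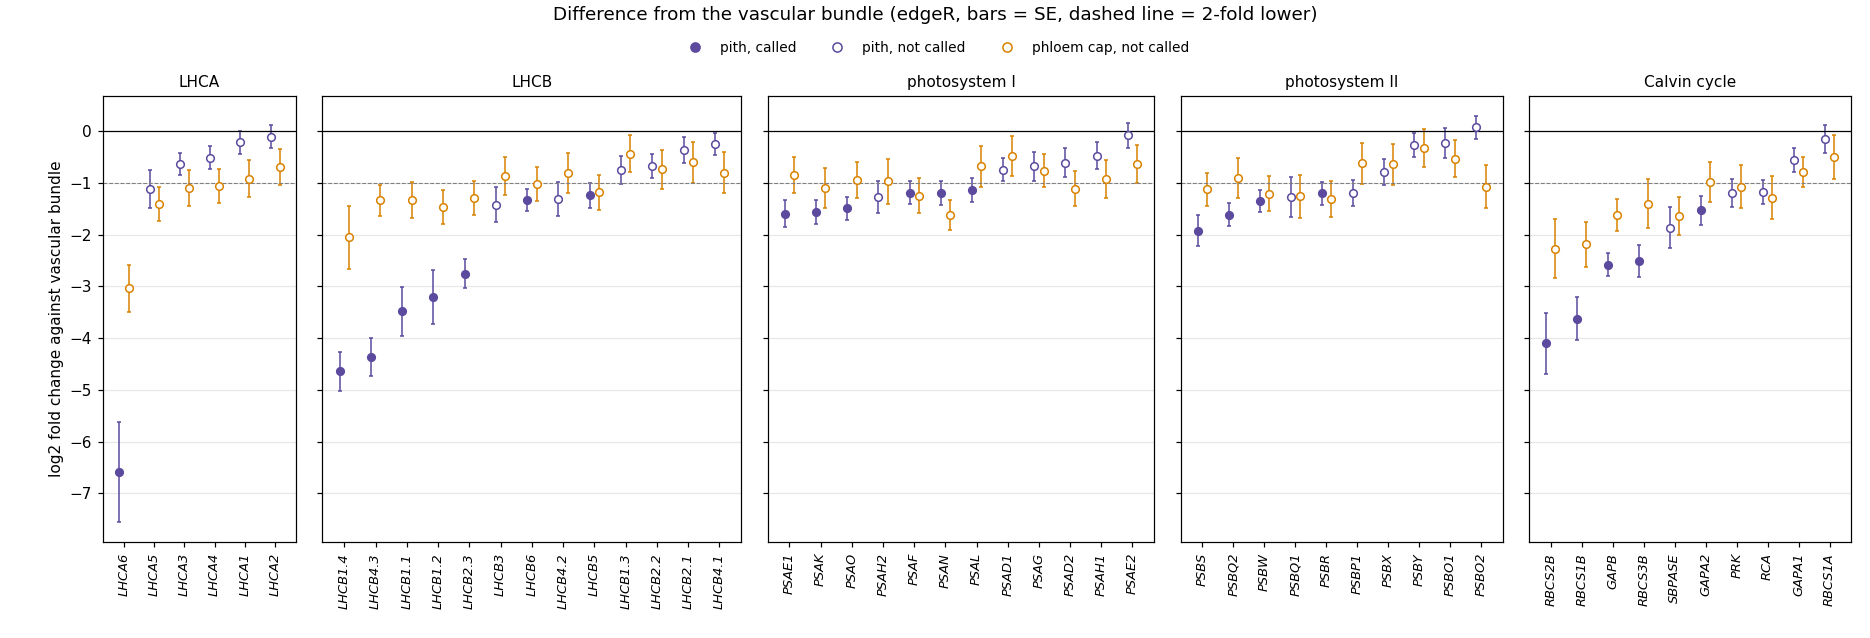
Log2 fold change against the vascular bundle (y axis, bars show the SE) of each tested gene in the pith (purple) and the phloem cap (orange), ordered by the pith value within each group (x axis). Filled points passed the edgeR test and open points did not. The pith values spread from -6.59 (LHCA6) to 0.08 (PSBO2), while the phloem cap values range from -3.04 to -0.32 and none is filled.

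Among LHCA genes, which encode the antenna of photosystem I, the pith difference was concentrated in LHCA6 (AT1G19150, chr1:6612630-6613972, plus strand), a minor antenna protein that links photosystem I to the NADH dehydrogenase-like complex. LHCA6 reached 86.4 and 134 CPM in the bundle, 8.72 and 18.3 CPM in the cap and 2.25 and 0.0527 CPM in the pith. It was lower in every pith library than in any other library (-6.59 ± 0.97 SE on the log2 scale, edgeR adjusted p = 0.00319), and the pith libraries differed from each other, with 1 read in S35 and 41 in S34. Its call was lost without a low-count filter (edgeR adjusted p = 0.0278) and without S30 or S31 (0.0578 and 0.0306). LHCA5 (AT1G45474), which has a similar linking role, was at 20.5 and 27.9 CPM in the bundle, 7.42 and 10.9 CPM in the cap and 7.92 and 14.6 CPM in the pith and was not called. LHCA1 (AT3G54890) and LHCA4 (AT3G47470) encode a pair of major antenna proteins of photosystem I. LHCA1 had 1789.9 and 1626 CPM in the bundle, 719 and 1101 CPM in the cap and 1623 and 1333 CPM in the pith, with S34 just below S31 (-0.21 ± 0.23 SE on the log2 scale, edgeR adjusted p = 0.525 for the pith). LHCA4 had 4006 and 4022 CPM in the bundle, 1964 and 1925 CPM in the cap and 3124 and 2514 CPM in the pith (-0.51 ± 0.23 SE on the log2 scale, edgeR adjusted p = 0.133), and 4.82% of its windows touch a neighbouring gene. LHCA2 (AT3G61470), another major antenna protein gene with 11.4% recurring windows, had 806 and 712 CPM in the bundle, 362 and 583 CPM in the cap and 755 and 662 CPM in the pith and the smallest pith difference of the group (-0.10 ± 0.22 SE on the log2 scale, edgeR adjusted p = 0.764). LHCA3 (AT1G61520), which pairs with LHCA2 in the complex, had 1619 and 1873 CPM in the bundle, 673 and 965 CPM in the cap and 1098 and 1163 CPM in the pith (-0.63 ± 0.22 SE on the log2 scale, edgeR adjusted p = 0.0676). The pith thus held the major antenna genes of photosystem I at levels whose difference from the bundle did not pass the test, beside a steep difference in a linker gene.

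LHCB1 and LHCB2 encode the trimeric antenna of photosystem II, the most abundant chlorophyll-binding proteins of plants. LHCB1.3 had the highest counts of the LHCB genes, with 4016 and 2889 CPM in the bundle, 2518 and 2626 CPM in the cap and 2319.9 and 1788 CPM in the pith, and all 6 libraries lay within 1788 to 4016 CPM (-0.75 ± 0.27 SE on the log2 scale, edgeR adjusted p = 0.0733 for the pith). Its neighbours in the genome behaved differently. LHCB1.1 had 593 and 457 CPM in the bundle, 168 and 253 CPM in the cap and 67.9 and 26.3 CPM in the pith. LHCB1.2 had 1277 and 1182 CPM in the bundle, 387 and 509.8 CPM in the cap and 202 and 64 CPM in the pith. Both were called lower in the pith, where the libraries of neither gene overlapped with any library of the other tissues. LHCB1.4 (AT2G34430, chr2:14524607-14525918, plus strand), with 13.7% recurring windows, showed the largest difference among LHCB genes, from 247 and 358 CPM in the bundle, 32.6 and 114 CPM in the cap and 15 and 9.23 CPM in the pith (-4.64 ± 0.37 SE on the log2 scale, edgeR adjusted p = 0.000377).

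In the LHCB2 family, LHCB2.1 (AT2G05100) and LHCB2.2 (AT2G05070) did not pass the test and LHCB2.3 (AT3G27690) did. LHCB2.1, with 23.6% recurring windows, was at 775 and 914 CPM in the bundle, 394 and 726 CPM in the cap and 552 and 761 CPM in the pith. LHCB2.2 was at 494 and 606 CPM in the bundle, 239.8 and 425 CPM in the cap and 332 and 363 CPM in the pith (-0.67 ± 0.23 SE on the log2 scale, edgeR adjusted p = 0.0648), with the largest share of recurring windows of all genes described, 29.5%. LHCB2.3 was at 98.7 and 124 CPM in the bundle, 35.9 and 55.9 CPM in the cap and 19.1 and 14 CPM in the pith and was called lower in the pith, but 43.5% of its windows touch the neighbouring gene AT3G27700. LHCB3 (AT5G54270), a constituent of trimers tied closely to the photosystem II core, had 984 and 960.04 CPM in the bundle, 404 and 669 CPM in the cap and 478 and 250.5 CPM in the pith. Every pith library was below every other library except that S34 exceeded S32 (-1.42 ± 0.33 SE on the log2 scale, edgeR adjusted p = 0.0186), the call was missed by edgeR and made by DESeq2, and 16.99% of its windows touch another gene.

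LHCB4 (CP29), LHCB5 (CP26) and LHCB6 (CP24) are the monomeric antenna proteins that connect the trimers to the core of photosystem II. LHCB4.1 (AT5G01530) stayed closest to the bundle of all LHCB genes, with 907 and 838 CPM in the bundle, 348 and 661 CPM in the cap and 741 and 735 CPM in the pith (-0.24 ± 0.21 SE on the log2 scale, edgeR adjusted p = 0.427). LHCB4.2 (AT3G08940) had 1174 and 1048 CPM in the bundle, 454 and 828 CPM in the cap and 590.1 and 307 CPM in the pith (-1.31 ± 0.34 SE on the log2 scale, edgeR adjusted p = 0.0256). LHCB4.3 (AT2G40100, chr2:16745628-16747424, plus strand), a divergent copy also named LHCB8, had 62.3 and 81 CPM in the bundle, 23.4 and 33.7 CPM in the cap and 2.58 and 4.38 CPM in the pith and was called lower in the pith, with no overlap between the pith and any other library. LHCB5 (AT4G10340) was at 893 and 1194 CPM in the bundle, 413 and 516 CPM in the cap and 416 and 470.4 CPM in the pith and was called lower as well. LHCB6 (AT1G15820) had 2186 and 2172 CPM in the bundle, 968 and 1197 CPM in the cap and 858 and 888 CPM in the pith, with little spread between replicates (-1.32 ± 0.21 SE on the log2 scale, edgeR adjusted p = 0.00434), and 22.2% of its windows touch other genes.

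Photosystem I genes spanned a narrower range, from -1.59 to -0.07. PSAF (AT1G31330), whose product helps plastocyanin to dock, had the highest counts, 3008 and 3508 CPM in the bundle, 1341 and 1425 CPM in the cap and 1489 and 1372 CPM in the pith (-1.19 ± 0.22 SE on the log2 scale, edgeR adjusted p = 0.00784). PSAL (AT4G12800), a subunit near the docking site of mobile LHCII, had 1344 and 1151 CPM in the bundle, 555 and 1018 CPM in the cap and 531 and 606 CPM in the pith (-1.14 ± 0.22 SE on the log2 scale, edgeR adjusted p = 0.00966). PSAK (AT1G30380), on the antenna side of the complex, had 834 and 679 CPM in the bundle, 256 and 459 CPM in the cap and 263 and 252 CPM in the pith (-1.56 ± 0.23 SE on the log2 scale, edgeR adjusted p = 0.00317). In each of these genes both pith libraries lay below both bundle libraries. PSAN (AT5G64040), a lumenal subunit, and PSAO (AT1G08380), another subunit near PSAL, were also called lower, from 403 and 503 to 196 and 203 CPM and from 549 and 518 to 200.2 and 179.7 CPM. The stromal subunit PsaE has copies that differed. PSAE1 (AT4G28750) had 215 and 183 CPM in the bundle, 81.3 and 142 CPM in the cap and 78.1 and 54.4 CPM in the pith (-1.59 ± 0.27 SE on the log2 scale, edgeR adjusted p = 0.00527), and PSAE2 (AT2G20260) had 91.6 and 70.6 CPM in the bundle, 36.7 and 68.7 CPM in the cap and 83.3 and 71.1 CPM in the pith (-0.07 ± 0.24 SE on the log2 scale, edgeR adjusted p = 0.848). The counts of PSAE1 are uncertain because 60.1% of its windows touch other genes, as do 13.7% of those of PSAE2. PSAD1 (AT4G02770) and PSAD2 (AT1G03130), for the ferredoxin-docking subunit, went from 488 and 481 to 266 and 315 CPM and from 188 and 203 to 158 and 99 CPM and were not called. The remaining genes PSAG (AT1G55670), PSAH1 (AT3G16140) and PSAH2 (AT1G52230), of which 65.5, 68.3 and 31.4% of windows touch other genes, were not called by edgeR either. PSAG, on the antenna side of the complex, had 227 and 238 CPM in the bundle, 109 and 167 CPM in the cap and 179 and 112 CPM in the pith. PSAH1 had 57 and 71.5 CPM in the bundle, 23.2 and 45.2 CPM in the cap and 39.4 and 53.5 CPM in the pith. PSAH2 had 33.2 and 43.4 CPM in the bundle, 11.9 and 27.6 CPM in the cap and 13 and 18.9 CPM in the pith, and PsaH forms the docking site for LHCII during state transitions. The pith libraries of all 3 genes lay below those of the bundle.

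For photosystem II, the genes of the oxygen-evolving complex differed among themselves. PSBO1 (AT5G66570), the major isoform of the manganese-stabilizing protein, had 3654 and 2608 CPM in the bundle, 2096 and 2265 CPM in the cap and 3197 and 2185 CPM in the pith (-0.22 ± 0.29 SE on the log2 scale, edgeR adjusted p = 0.607), with S34 above S31. PSBO2, the minor isoform, had 204 and 183 CPM in the bundle, 56.9 and 128 CPM in the cap and 218 and 189 CPM in the pith (0.08 ± 0.22 SE on the log2 scale, edgeR adjusted p = 0.825), and its bundle and pith libraries overlapped. With library totals in place of TMM this value was -0.13. PSBQ2 (AT4G05180), for another extrinsic protein of the complex, was called lower in the pith with 356 and 399.8 CPM in the bundle and 127 and 119.99 CPM in the pith. PSBP1 (AT1G06680) and PSBQ1 (AT4G21280), which encode further extrinsic proteins, were called by DESeq2 and not by edgeR. PSBP1 had 1168 and 850.3 CPM in the bundle against 479 and 406 CPM in pith, and PSBQ1 had 78 and 137 against 31.7 and 57.3 CPM. PSBR (AT1G79040), a small protein that helps to assemble the complex, had the highest counts of the photosystem II genes, with 5726 and 5014 CPM in the bundle, 2127 and 2240.1 CPM in the cap and 2364 and 2313 CPM in the pith (-1.20 ± 0.22 SE on the log2 scale, edgeR adjusted p = 0.00683), and 8.67% of its windows touch a neighbour. PSBW (AT2G30570), which stabilizes supercomplexes, had 1667 and 1466 CPM in the bundle, 563 and 805 CPM in the cap and 604 and 631 CPM in the pith (-1.35 ± 0.22 SE on the log2 scale, edgeR adjusted p = 0.00452). PSBS (AT1G44575), the sensor that triggers dissipation of excess light as heat, had 139 and 181 CPM in the bundle, 59.4 and 89.1 CPM in the cap and 51.3 and 33.6 CPM in the pith and the largest difference in the group (-1.92 ± 0.30 SE on the log2 scale, edgeR adjusted p = 0.00395). The small subunit genes PSBX (AT2G06520) and PSBY (AT1G67740) were not called, with 224 and 227 CPM in the bundle against 151 and 110.03 CPM in pith for PSBX and with 159 and 145 against 111 and 141 CPM for PSBY.

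Calvin cycle genes showed the widest spread after the antenna genes. RBCS1A was at 2802 and 3431 CPM in the bundle, 1556 and 2885 CPM in the cap and 3395 and 2246 CPM in the pith, so that its bundle and pith libraries overlapped (-0.15 ± 0.28 SE on the log2 scale, edgeR adjusted p = 0.728). RBCS1B was at 55.1 and 102 CPM in the bundle, 12.2 and 22.4 CPM in the cap and 7.81 and 4.96 CPM in the pith. RBCS3B was at 413 and 513 CPM in the bundle, 102 and 251 CPM in the cap and 100.1 and 62.9 CPM in the pith. RBCS2B had the largest pith difference of the group, from 101 and 132 CPM in the bundle, 11.4 and 37.2 CPM in the cap and 10.7 and 2.95 CPM in the pith (-4.10 ± 0.58 SE on the log2 scale, edgeR adjusted p = 0.00284). All 3 chromosome 5 copies were called lower, whereas RBCS1A was not. RCA (AT2G39730), which removes inhibitory sugar phosphates from Rubisco, had 679 and 852 CPM in the bundle, 217 and 418 CPM in the cap and 318 and 363 CPM in the pith (-1.17 ± 0.23 SE on the log2 scale, edgeR adjusted p = 0.0102), just above the adjusted p limit, and DESeq2 called it lower. GAPA1 (AT3G26650) had 582 and 567 CPM in the bundle, 315 and 353 CPM in the cap and 440.5 and 339 CPM in the pith (-0.56 ± 0.23 SE on the log2 scale, edgeR adjusted p = 0.115). GAPA2 (AT1G12900) and GAPB (AT1G42970) were called lower, from 100.2 and 143 to 47.6 and 37 CPM and from 687 and 596 to 108 and 107 CPM. The A and B subunits assemble into 1 enzyme, yet their pith levels stood at different fractions of the bundle, 67.8% for GAPA1 and 16.8% for GAPB. SBPASE (AT3G55800) had 38.9 and 60.8 CPM in the bundle, 12.2 and 19.8 CPM in the cap and 9.13 and 18.4 CPM in the pith. PRK (AT1G32060) had 116 and 159.6 CPM in the bundle, 42.1 and 89.4 CPM in the cap and 51.2 and 69.2 CPM in the pith. Both enzymes are regulated by light through thioredoxin, and both genes were called by DESeq2 only.

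Copies of the same protein therefore took different shares of their family in the pith. LHCB1.3 made up 65.5 and 59.1% in the bundle, 81.1 and 75% in the cap and 89.1 and 94.7% in the pith of the LHCB1 counts. RBCS1A made up 83.1 and 82.1% in the bundle, 92.5 and 90.3% in the cap and 96.6 and 96.9% in the pith of the RBCS counts. In both families the 3 tissues did not overlap, with the phloem cap between bundle and pith. LHCB4.1 made up 42.3 and 42.6% in the bundle, 42.1 and 43.4% in the cap and 55.6 and 70.2% in the pith of the LHCB4 counts, which set only the pith apart. PSAE2 made up 29.8 and 27.8% in the bundle, 31.1 and 32.6% in the cap and 51.6 and 56.7% in the pith of the PSAE counts, and GAPA1 85.3 and 79.8% in the bundle, 87.8 and 81.4% in the cap and 90.2 and 90.2% in the pith of the GAPA counts. It was not always the copy with most counts in the bundle that gained share in pith, since PSAE2 held fewer counts than PSAE1 in the bundle and more in pith. Scaled to countable exonic windows, however, PSAE1 stood above PSAE2 in both tissues. Means were 767 and 204 CPM per kilobase in the bundle and 255 and 194 CPM per kilobase in the pith. The order of these copies by counts thus depends on the length that can be counted. PSAH1 made up 63.2 and 62.2% in the bundle, 66.2 and 62.1% in the cap and 75.2 and 73.9% in the pith of the PSAH counts. As given above, windows of both PSAH copies touch other genes. PSBO1 held 92.03 to 97.4% of the PSBO counts over the 6 libraries, and its shares overlapped between bundle and pith, as did those of the PSAD and PSBQ copies. No test was made on these shares, because 2 libraries against 2 allow no exact two-sided p below 0.333.

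**Figure D4:**
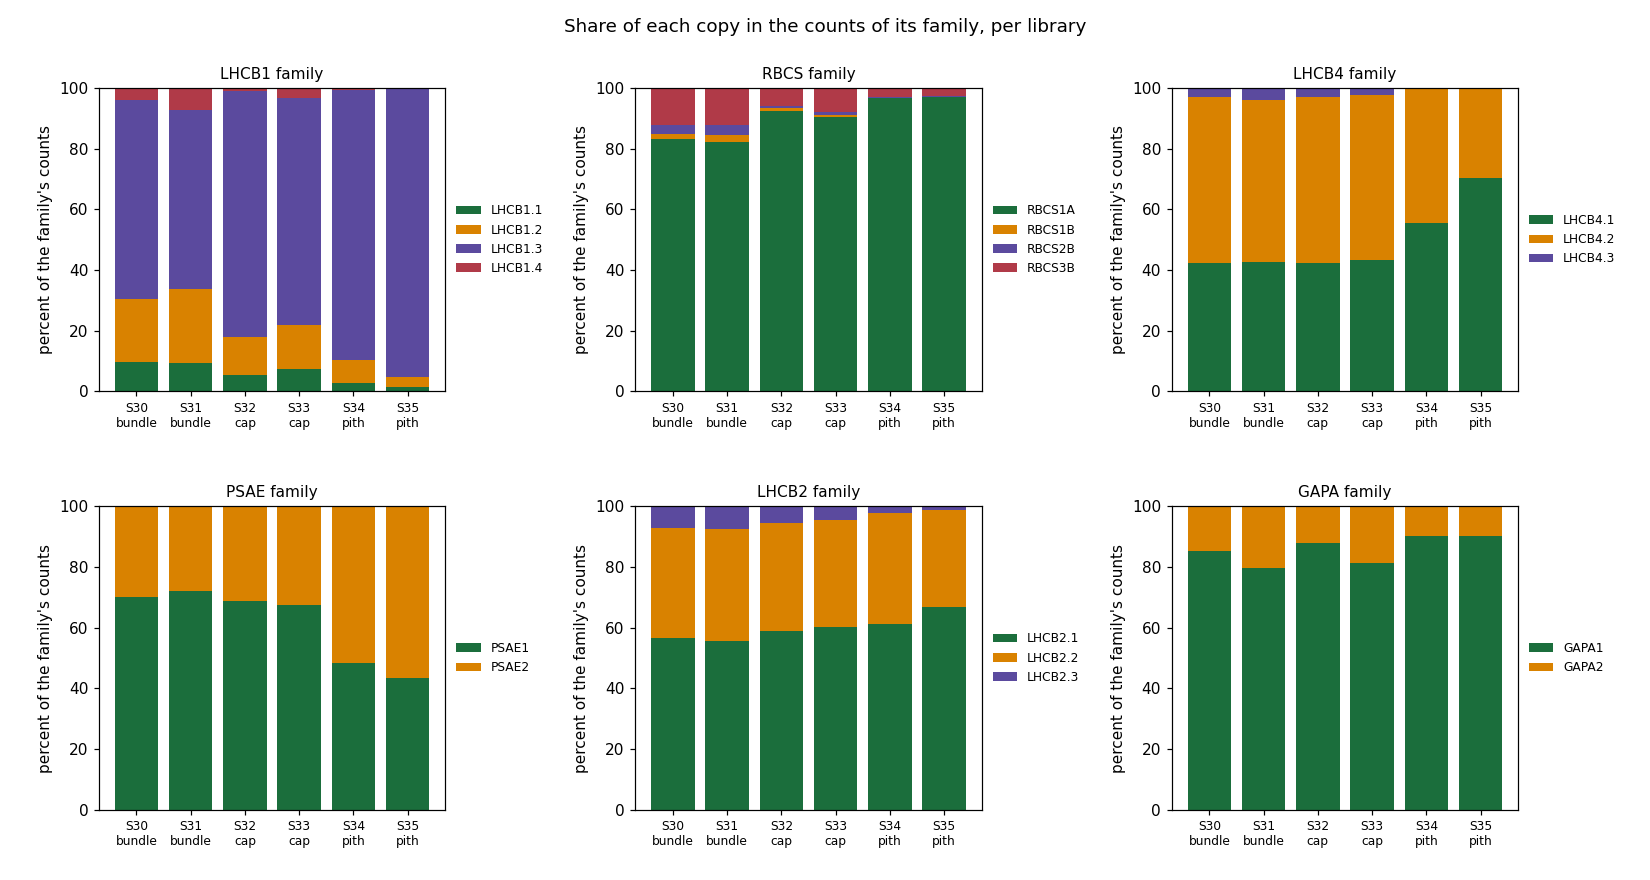
Percent of the family's counts (y axis) assigned to each copy in each library (x axis) for the LHCB1, RBCS, LHCB4, PSAE, LHCB2 and GAPA families. LHCB1.3 holds 65.5 and 59.1% in the bundle libraries and 89.1 and 94.7% in the pith libraries, and RBCS1A holds 83.1 and 82.1% in the former and 96.6 and 96.9% in the latter.

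The regions upstream of these genes are less alike than their coding parts. Over the 250 bases before the annotated gene start, aligned identity was 52 to 58.8% among LHCB1.1, LHCB1.2 and LHCB1.3, against 95.6 to 96.4% in the coding sequence. These windows are shown because copies with nearly identical coding sequences differ here and in their pith level. Capitals mark matches on either strand to the G-box (CACGTG), the core of the I-box (GATAAG) or the hexamer CCAATC, which has been linked to GLK transcription factors, and matches to different motifs did not overlap:

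LHCB1.1 (chr1:10475970-10476219, minus strand): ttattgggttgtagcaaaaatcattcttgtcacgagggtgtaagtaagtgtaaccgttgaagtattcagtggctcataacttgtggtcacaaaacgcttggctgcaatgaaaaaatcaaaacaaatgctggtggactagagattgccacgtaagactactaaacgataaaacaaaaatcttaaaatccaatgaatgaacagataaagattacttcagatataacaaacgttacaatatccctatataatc

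LHCB1.2 (chr1:10473503-10473752, minus strand): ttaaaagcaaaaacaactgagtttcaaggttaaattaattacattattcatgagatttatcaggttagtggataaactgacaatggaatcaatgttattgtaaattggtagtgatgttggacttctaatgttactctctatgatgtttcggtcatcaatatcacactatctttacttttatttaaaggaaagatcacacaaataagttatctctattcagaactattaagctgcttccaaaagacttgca

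LHCB1.3 (chr1:10477635-10477884, plus strand): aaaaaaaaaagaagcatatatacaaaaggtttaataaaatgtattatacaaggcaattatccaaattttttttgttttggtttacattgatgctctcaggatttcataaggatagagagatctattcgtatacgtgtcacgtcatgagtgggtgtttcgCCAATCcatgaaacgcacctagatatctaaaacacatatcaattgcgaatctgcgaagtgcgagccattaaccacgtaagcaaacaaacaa

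RBCS1A (chr1:25049668-25049917, minus strand): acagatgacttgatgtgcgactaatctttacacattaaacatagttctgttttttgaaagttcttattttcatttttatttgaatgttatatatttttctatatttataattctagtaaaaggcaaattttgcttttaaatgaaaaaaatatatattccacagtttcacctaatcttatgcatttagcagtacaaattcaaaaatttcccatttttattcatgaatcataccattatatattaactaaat

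RBCS2B (chr5:15382072-15382321, minus strand): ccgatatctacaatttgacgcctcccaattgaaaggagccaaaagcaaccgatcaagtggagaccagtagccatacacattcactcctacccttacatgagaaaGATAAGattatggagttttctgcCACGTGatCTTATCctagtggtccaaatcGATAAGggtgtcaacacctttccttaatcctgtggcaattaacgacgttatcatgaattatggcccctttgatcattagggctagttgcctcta

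LHCB1.3 had 1 match to CCAATC, 91 bases before its start, and LHCB1.1 and LHCB1.2 had 0 matches to these 3 motifs. RBCS2B had 1 G-box and 3 I-box cores and RBCS1A had 0 matches, but the annotated start lies 93 bases before the coding sequence in RBCS2B and 418 bases before it in RBCS1A, so that the windows do not cover comparable positions. Among all 52 genes, 10 windows held a G-box (19.2%, against 6.5% of 27443 protein-coding genes), 11 an I-box core (21.2 against 12.3%) and 12 the hexamer CCAATC (23.1 against 10.2%). The hexamer occurred in 3 of 6 LHCA and 7 of 14 LHCB windows and in 0 of 12 photosystem I windows. These matches are a description of letters and say nothing about binding.

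In the phloem cap the differences from the bundle spanned a narrower range than in pith. All 51 genes had a log2 fold change below 0 against the vascular bundle, from -3.04 in LHCA6 to -0.32 in PSBY, with a median of -1.05 (0.04 over all genes tested). Not a single gene passed the edgeR thresholds, and the same held for the whole table, with 0 of 18528 genes called lower and 0 called higher (0%). The smallest adjusted p among the 51 genes was 0.0548, for LHCA6. At an unadjusted edgeR p below 0.05, 33 genes were lower and 0 higher (11 and 9.93% of all genes). In 49 genes both phloem cap libraries lay below both bundle libraries (26.7% of all genes). DESeq2 called 19 genes lower and 0 higher (3.90 and 2.87% of all genes).

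The phloem cap replicates stood further apart than those of the other tissues. S32 lay below S33 in 50 of 51 genes, and 8 genes differed by more than 2-fold between them, each with S32 lower. In the pith 5 genes and in the vascular bundle 0 genes differed that much. Without S33 edgeR called 23 genes lower in the phloem cap (5.98% of all genes), and without S32 it called 2 (2.19%). In these fits the spread came from the bundle libraries alone, and the single cap library was assumed to vary like them. The largest difference was again that of LHCA6 (-3.04 ± 0.45 SE on the log2 scale, edgeR adjusted p = 0.0548). The largest of the other groups were those of RBCS2B (-2.27 ± 0.57 SE on the log2 scale, edgeR adjusted p = 0.0933), LHCB1.4 (-2.05 ± 0.61 SE on the log2 scale, edgeR adjusted p = 0.132) and PSAN (-1.62 ± 0.30 SE on the log2 scale, edgeR adjusted p = 0.0619). PSBR, at 2127 and 2240.1 CPM in the phloem cap, had the largest difference of the photosystem II genes (-1.31 ± 0.34 SE on the log2 scale, edgeR adjusted p = 0.0955). The smallest differences by group were those of LHCA2 (-0.69 ± 0.35 SE on the log2 scale, edgeR adjusted p = 0.333), LHCB1.3 (-0.43 ± 0.35 SE on the log2 scale, edgeR adjusted p = 0.551), PSAD1 (-0.48 ± 0.38 SE on the log2 scale, edgeR adjusted p = 0.539), PSBY (-0.32 ± 0.37 SE on the log2 scale, edgeR adjusted p = 0.683) and RBCS1A (-0.50 ± 0.42 SE on the log2 scale, edgeR adjusted p = 0.562). Both comparisons use the same bundle libraries, so likeness between them was not evaluated. Side by side, GAPB was at 32.8% of its bundle mean in the cap and at 16.8% in pith, LHCB4.3 at 39.9 and 4.85%, and PSBO2 at 47.9 and 105%.

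Direct comparison of the phloem cap with the pith showed few differences. EdgeR called 1 of 51 genes higher in the phloem cap, LHCB4.3 (3.03 ± 0.48 SE on the log2 scale, edgeR adjusted p = 0.00263), with 23.4 and 33.7 CPM in the cap and 2.58 and 4.38 CPM in the pith, and 0 lower. Of all 18201 genes tested, 8.33% were called higher and 4.34% lower. The median log2 fold change was 0.15 (0.07 over all genes tested), with 30 genes above 0 and 21 below. DESeq2 called 6 genes higher and 0 lower (12.6 and 7.35% of all genes). At an unadjusted edgeR p below 0.05, 10 genes were higher and 1 lower (22 and 15.3% of all genes). LHCA6 had the largest value without passing the edgeR test (3.55 ± 1.17 SE on the log2 scale, edgeR adjusted p = 0.064) and PSBO2 the lowest (-1.14 ± 0.43 SE on the log2 scale, edgeR adjusted p = 0.0829). With library totals in place of TMM the median of all genes moved by 0.34 on the log2 scale, and 22.9 instead of 34.2% of all edgeR calls were lower.

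Levels of different genes can be compared only per length. Per kilobase of gene, introns included, PSBR had the highest level of the 52 genes in the bundle (5076 CPM per kilobase on average), followed by LHCB1.3, LHCA4, PSAF and RBCS1A, at 2807, 2374, 2223 and 2064 CPM per kilobase. In the pith the order began with PSBR, RBCS1A, LHCB1.3, LHCA4 and PSBO1. LHCB1.2 took rank 11 in the bundle, rank 15 in the phloem cap and rank 30 in the pith. In the cap LHCB1.3, at 2091 CPM per kilobase, stood before PSBR at 2064. With exon length PSBR was first in all 3 tissues, and LHCB1.3 and LHCA4 exchanged ranks 2 and 3 in the bundle. The pith order was then PSBR, RBCS1A, LHCA4, PSBO1 and LHCB1.3, and by the number of countable exonic windows it was PSBR, LHCA4, RBCS1A, LHCB1.3 and PSBO1. Amplification and the removal of ambiguous reads also bear on such ranks.

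The surrounding pathways were described with lists of other genes. In chlorophyll synthesis, 4 of 25 genes tested were called lower in the pith and 0 higher, against 10.5 and 5.44% of all genes, with a median of -0.48. They were GSA2, DVR, PORC and CHLG, chosen after their values were seen, as were the called genes named for the other lists. DVR (AT5G18660), which reduces a vinyl group of chlorophyll precursors, had the largest difference (-3.12 ± 0.42 SE on the log2 scale, edgeR adjusted p = 0.0023) and went from 11.7 and 17.4 to 1.92 and 1.42 CPM. PORB (AT4G27440), a protochlorophyllide reductase and the gene with most counts of the list, had 861 and 868 CPM in the bundle and 941 and 732 CPM in the pith (-0.05 ± 0.23 SE on the log2 scale, edgeR adjusted p = 0.894). GGR (AT1G74470), the reductase that makes the phytol tail, had 847 and 1055 CPM in the bundle against 628 and 411 CPM in pith (-0.87 ± 0.28 SE on the log2 scale, edgeR adjusted p = 0.056), and GUN4 (AT3G59400), a regulator of magnesium chelatase, had the highest value of the list (0.37 ± 0.40 SE on the log2 scale, edgeR adjusted p = 0.534).

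Among electron transport and ATP synthase genes, 4 of 16 were called lower in the pith (FD2, FNR2, ATPD and PGRL1A) and 0 higher (all genes, 10.5 and 5.44%), with a median of -0.87. FNR2 (AT1G20020), a ferredoxin-NADP reductase, went from 418 and 459 to 88 and 53 CPM (-2.64 ± 0.31 SE on the log2 scale, edgeR adjusted p = 0.00138). Its paralogue FNR1 (AT5G66190) had 413 and 471 CPM in the bundle against 238 and 255 CPM in pith (-0.85 ± 0.22 SE on the log2 scale, edgeR adjusted p = 0.0254). PETE2 (AT1G20340), the major plastocyanin gene, had 1127 and 822 CPM in the bundle against 483 and 531 CPM in pith (-0.95 ± 0.25 SE on the log2 scale, edgeR adjusted p = 0.026), and PGRL1B (AT4G11960) had the highest value (0.07 ± 0.24 SE on the log2 scale, edgeR adjusted p = 0.845). Of 12 other Calvin cycle genes, 2 were called lower (HCEF1 and CP12-2) and 0 higher, beside the same 10.5 and 5.44% of all genes, with a median of -0.36. CP12 proteins tie GAPDH and PRK into an inactive complex in the dark. CP12-2 (AT3G62410) went from 214 and 178 to 29 and 17 CPM (-3.09 ± 0.33 SE on the log2 scale, edgeR adjusted p = 0.000964), while CP12-1 (AT2G47400), with most counts of the list, had 2991 and 2226 CPM in the bundle against 3127 and 2383 CPM in pith (0.08 ± 0.26 SE on the log2 scale, edgeR adjusted p = 0.848). TKL1 (AT3G60750), for transketolase, had 605 and 581 CPM in the bundle against 479 and 486 CPM in pith (-0.30 ± 0.21 SE on the log2 scale, edgeR adjusted p = 0.323), and FBA3 (AT2G01140), an aldolase, had the highest value (0.31 ± 0.23 SE on the log2 scale, edgeR adjusted p = 0.356).

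Photorespiration recovers the product of Rubisco's reaction with oxygen through peroxisomes and mitochondria. Of 13 genes tested, 5 were called lower in the pith (CAT2, SHM1, GLDP1, GLDT and GDCH) and 0 higher (all genes, 10.5 and 5.44%), with a median of -0.88. SHM1, GLDP1, GLDT and GDCH encode mitochondrial enzymes of glycine breakdown. CAT2 (AT4G35090), the peroxisomal catalase, had the largest difference and went from 29.96 and 28.2 to 1.43 and 1.27 CPM (-4.43 ± 0.33 SE on the log2 scale, edgeR adjusted p = 0.00033). GLDT (AT1G11860) went from 619 and 533 to 103 and 128 CPM (-2.32 ± 0.24 SE on the log2 scale, edgeR adjusted p = 0.000897). The peroxisomal aminotransferase AGT (AT2G13360), with most counts of the list, was at 683 and 687 CPM in the bundle, 106 and 151 CPM in the cap and 424 and 507 CPM in the pith (-0.56 ± 0.22 SE on the log2 scale, edgeR adjusted p = 0.0967 for the pith). In AGT the phloem cap and not the pith was the lowest tissue, and the phloem cap was called lower than the pith (-1.85 ± 0.36 SE on the log2 scale, edgeR adjusted p = 0.00666). GLDP2 (AT2G26080), the second P protein of glycine decarboxylase, had 121 and 90.9 CPM in the bundle, 44 and 76.9 CPM in the cap and 195 and 282 CPM in the pith, the highest pith value of the list (1.17 ± 0.28 SE on the log2 scale, edgeR adjusted p = 0.0194), and DESeq2 called it higher in the pith.

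Of 14 regulators tested, 5 were called lower in the pith and 1 higher (all genes, 10.5 and 5.44%), with a median of -0.38. GLK1 and GLK2 (AT5G44190), transcription factors that activate antenna and chlorophyll synthesis genes, were among those called lower. GLK2 had 66.5 and 68.9 CPM in the bundle, 56.7 and 71.7 CPM in the cap and 9.95 and 13.5 CPM in the pith (-2.53 ± 0.27 SE on the log2 scale, edgeR adjusted p = 0.00094 for the pith), and its phloem cap libraries overlapped those of the bundle. GLK1 (AT2G20570) was at 28.5 and 42 CPM in the bundle, 5.78 and 14 CPM in the cap and 3.68 and 3.27 CPM in the pith. GNC (AT5G56860), a GATA factor that promotes greening, averaged 1.96 CPM in the bundle and had 0 counts in both pith libraries, which makes it at least 11.9-fold lower if 3 counts in a library are taken as the limit. The sigma factor genes SIG1 and SIG4 completed those called lower. PIF3 (AT1G09530), a phytochrome-interacting factor that represses greening in the dark, was called higher, with 30.6 and 23.8 CPM in the bundle, 34.7 and 32.8 CPM in the cap and 82.4 and 73.2 CPM in the pith (1.51 ± 0.25 SE on the log2 scale, edgeR adjusted p = 0.0047). PIF1 (AT2G20180) had the highest value (2.80 ± 0.69 SE on the log2 scale, edgeR adjusted p = 0.0215) at only 2.25 and 3.74 CPM in the pith. Among 9 genes for light-harvesting-like proteins, 3 were called lower (ELIP1, SEP1 and LIL3:1) and 0 higher (all genes, 10.5 and 5.44%), with a median of -1.01. ELIP1 (AT3G22840), induced by strong light, had 7.08 and 7.21 CPM in the bundle and 0 counts in both pith libraries, at least 43.3-fold lower by the same limit. SEP2 (AT2G21970) had the most counts, with 103 and 93.7 CPM in the bundle against 146 and 153 CPM in pith (0.60 ± 0.21 SE on the log2 scale, edgeR adjusted p = 0.0731), followed by LIL3:2 (AT5G47110) with 93.1 and 86.2 against 128 and 114 CPM (0.43 ± 0.22 SE on the log2 scale, edgeR adjusted p = 0.179), and LHCB7 (AT1G76570) had the highest value (0.97 ± 0.24 SE on the log2 scale, edgeR adjusted p = 0.023). GNC and ELIP1 have the lowest values of their lists, so the medians are the same with either gene at its limit. In the cap edgeR called 0 genes of these lists against the bundle. At an unadjusted edgeR p below 0.05, 3 of 25 chlorophyll synthesis, 10 of 16 electron transport, 7 of 12 other Calvin cycle, 11 of 13 photorespiration, 2 of 14 regulator and 4 of 9 light-harvesting-like genes were lower there and 0 higher, against 11 and 9.93% of all genes. DESeq2 called 0, 5, 4, 7, 1 and 1 of them lower, in the same order, against 3.90% of all genes. Compared directly, cap against pith, edgeR called 1 of 25 chlorophyll synthesis genes (DVR), 1 of 13 photorespiration genes (CAT2) and 1 of 14 regulators (GLK2) higher in the cap. It called 3 of 13 photorespiration genes (AGT, GLDP2 and GOX2) lower and 0 genes of the other lists in either direction. Of all genes, 8.33% were called higher and 4.34% lower.

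The tissues were checked against markers. The 5 phloem cap markers (such as CYP83A1 and MYB28) summed to 3006 and 3459 CPM in the cap, 1142 and 837 CPM in the bundle, and 230.03 and 118 CPM in pith. The 4 pith markers summed to 206 and 279.9 CPM in the pith and to 2.80 to 10.9 CPM elsewhere. The study had picked CLE46 and AGP26 of this list, and MYB29 of the cap list, from these same libraries. Their levels are therefore no independent check. The other pith markers, ANAC074 and AT2G38380, came from earlier work. They were at 15.7 and 11.2 CPM and at 46.8 and 163 CPM in the pith, and at 0.193 to 1.26 CPM elsewhere. Markers of some other cell types had their highest sums in the bundle, as the photosynthesis genes had. The 5 epidermis markers, led by CER6, summed to 491 and 537 CPM in the bundle, 20.3 and 129 CPM in the cap, and 3.57 and 9.96 CPM in pith, and the 6 xylem markers to 4959.7 and 5182 CPM, 236 and 663 CPM, and 209 and 154 CPM in the same order. S33, the phloem cap library with the higher photosynthesis values, also had the higher epidermis and xylem sums. The 2 fibre markers summed to 127 and 124 CPM in the bundle, 17.1 and 46.6 CPM in the cap, and 8.85 and 8.28 CPM in pith. Not all markers had this order. Of the 2 starch sheath markers, SCR was at 8.74 and 10.6 CPM in the bundle, 3.42 and 5.37 CPM in the cap, and 19.9 and 26.9 CPM in pith. PIN3 was at 22.6 and 26.1 CPM, 32.4 and 28.9 CPM, and 2.86 and 2.06 CPM in the same order. The epidermis marker PDF1 was at 0 in 5 libraries, and LTP1, another epidermis marker, had 0.522 and 0.427 CPM in the bundle, 7.23 and 0.629 CPM in the cap, and 1.59 and 0.0527 CPM in pith. The 5 phloem markers summed to 1515 and 993 CPM in the bundle, 2559 and 1910.2 CPM in the cap, and 45.2 and 61.9 CPM in pith, and the 5 cambium markers to 708 and 511 CPM, 1214 and 892 CPM, and 585 and 548 CPM in the same order. Both sums were thus highest in the cap. Most of the cambium sum in pith came from PXY, at 573 and 529 CPM, which was itself highest there. PXY and MOL1 were not called between pith and bundle. WOX4, ANT and SMXL5 were called lower in pith (-5.41, -5.04 and -5.67 on the log2 scale). Of the 5 guard cell markers, SPCH was at 0 in all 6 libraries, and their sum was 49.3 and 23.9 CPM in the bundle, 107 and 47.6 CPM in the cap, and 1.54 and 2.37 CPM in pith. KAT1 made up most of it in bundle and cap, with 42.6 and 16.6 CPM and 95.6 and 37.5 CPM. FAMA was also highest in the cap. MYB60 was highest in the bundle, with 2.90 and 3.37 CPM against 0.337 and 1.80 CPM in the cap, and MUTE had counts only in pith. The part of these cell types in the results was not tested.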

How the data were processed

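Counts per gene were used as deposited. Per the labels and the study's methods, the authors amplified poly(A) RNA in 2 rounds, sequenced single-end reads of 50 bases, aligned them to TAIR10 with STAR 2.5.0a and counted unique alignments over whole Araport11 genes, introns included, irrespective of strand and without reads that touched more than 1 gene. All 6 columns of the table were assigned to a library by name, and 0 were left unused. Data from sorted nuclei and plastid genes were not analysed here.

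Each pair of tissues (2 libraries each) was compared with edgeR 4.0.16 in R 4.3.3: filterByExpr, TMM factors, robust glmQLFit and glmQLFTest, with Benjamini-Hochberg adjustment over all genes tested and calls at an adjusted p under 0.01 with a more than 2-fold change. The SE was derived from the estimate and the F statistic, as estimate over root F. DESeq2 1.42.0, which the study used, served as an alternative, besides other scalings, filters, thresholds and fits, and fits without 1 library. Sequences were read from TAIR10.1 with Python 3.11.15 and Biopython 1.88. Recurring and overlapping windows were counted over 50-base exonic windows.

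The genes and lists were chosen with earlier results of these data known. Full statistics are given, in each functional group, for the 3 genes with the highest mean, those with the largest and smallest difference in each comparison, and LHCB3 and LHCB2.2. In the lists they are given for the 2 genes with most counts and the extremes. Shares carry Wilson intervals at 95%. They are narrow for shares of all counts, which rest on whole libraries, and wider for shares within a family, as for PSAE2 in S34, from 49.8 to 53.4%.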

Additional observations from a re-analysis of the deposited data

How the results depend on the processing

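No paired analysis was possible because the labels carry no replicate numbers and do not say which libraries of different tissues came from the same plants or sections. For pith against bundle, the number of genes called lower was 11 in a fit over all 6 libraries, 9 with glmTreat, 14 without genes with recurring or overlapping windows (a restriction added after seeing the data) and 11 to 27 when leaving out 1 library. The median difference was -1.41 with library totals and -1.28 to -1.05 when leaving out 1 library, where the median of all genes itself moved by -0.21 with library totals (0.14 for cap against bundle). For cap against bundle, DESeq2 called 19 genes lower, and leaving out 1 library gave 0 to 23. For cap against pith, the number called higher was 6 with DESeq2, 2 with library totals, 5 without a filter, 5 at an adjusted p of 0.05 and 1 to 4 when leaving out 1 library, the number called lower was 0 to 1, and the median was 0.52 with library totals. In both comparisons with the bundle, the share of all genes called lower rose and fell with these counts when 1 library was left out. The ranges from leaving out 1 library therefore do not describe the photosynthesis genes alone. No share of all genes is given here for the fit over all 6 libraries or for glmTreat, so those counts lack a background. The same holds for the cap against pith counts with library totals, without a filter and at an adjusted p of 0.05. The cause of these changes was not tested.

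Signs of small differences changed for single genes when 1 library was left out. The ranges were -0.52 to 0.086 for PSBO1, -0.47 to 0.12 for RBCS1A, -0.20 to 0.030 for LHCA2, -0.23 to 0.17 for PSAE2 and -0.032 to 0.20 for PSBO2 in pith, and -0.89 to 0.079 for PSBY in the cap. PSBO2 was at -0.13 with library totals. Without genes with over 10% recurring windows, the share of counts was 3.99% in the bundle and 1.96% in pith. Low counts limit LHCA6, GNC and PIF1.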
